A study of Mus musculus with 2 samples.

Results

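Rab GTPases and the SNARE machinery direct membrane traffic, and the genes described here are the 98 gene symbols of the deposited brown fat table that begin with Rab, Vamp, Stx, Stxbp or Tbc1d and a number, or that consist of Snap and a number, out of 10761 usable symbols. The rule reads the symbols and uses no measured value. Brown adipose tissue came from male C57BL6/J mice of 8 to 12 weeks, all fed for 10 days on a high-fat diet (60% of kcal). The HFD control group had this diet without SML, and the SML group was in addition injected with SML into the peritoneum, 5 mg for each kg of body weight. SML is the labels' only name for the agent, and sesaminol, a lignan of sesame, is the one in the title. Each group was 1 library, and the number of animals it held is not stated in the labels. With no replicates, every difference compares 2 libraries and not 2 conditions, has no test, and carries at most an interval for counting error.

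A Rab GTPase is a small switch that sits on one kind of membrane when bound to GTP and recruits the motors, tethers and effectors of that compartment. Proteins with a TBC domain (the Tbc1d genes) switch Rabs off by speeding GTP hydrolysis. SNAREs then drive fusion: an R-SNARE on the vesicle (Vamp) zips together with Q-SNAREs on the target (Stx and Snap), under the guidance of Sec1/Munc18 proteins such as the Stxbp gene products. In fat cells this machinery is best known for carrying the glucose transporter GLUT4 to the cell surface in response to insulin, and some of its members also sit on lipid droplets.

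The sequences shown are the 250 bases before the RefSeq start (build GRCm38.p6) of the 2 protein-coding members whose difference reached the size rule given below, Stx4a and Rab11fip3, and of Rab5a, the Rab GTPase with the highest difference. Capitals mark the letters CACGTG (an E-box) and TGACGTCA (a cAMP response element, CRE), searched on both strands, which do not overlap each other here. The Stx4a window is chr7:127841558-127841807 on the plus strand, the Rab11fip3 window chr17:26069519-26069768 on the minus strand, and the Rab5a window chr17:53478984-53479233 on the plus strand. The Stx4a and Rab5a windows end at the deposited gene start, while that of Rab11fip3 lies at a RefSeq start outside the deposited gene span. A second RefSeq promoter of Rab11fip3, chr17:26021861-26022110, lies inside that span, held neither motif and is not printed.
Stx4a: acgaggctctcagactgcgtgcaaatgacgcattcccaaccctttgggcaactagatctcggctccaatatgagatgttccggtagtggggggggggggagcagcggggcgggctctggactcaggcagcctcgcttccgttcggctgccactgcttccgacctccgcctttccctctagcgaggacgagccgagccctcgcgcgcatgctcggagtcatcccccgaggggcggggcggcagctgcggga
Rab11fip3: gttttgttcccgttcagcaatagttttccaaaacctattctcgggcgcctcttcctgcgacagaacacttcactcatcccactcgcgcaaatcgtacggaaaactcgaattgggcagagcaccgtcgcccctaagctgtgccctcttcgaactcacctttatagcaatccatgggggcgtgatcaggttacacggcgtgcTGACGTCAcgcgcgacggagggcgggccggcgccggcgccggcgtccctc
Rab5a: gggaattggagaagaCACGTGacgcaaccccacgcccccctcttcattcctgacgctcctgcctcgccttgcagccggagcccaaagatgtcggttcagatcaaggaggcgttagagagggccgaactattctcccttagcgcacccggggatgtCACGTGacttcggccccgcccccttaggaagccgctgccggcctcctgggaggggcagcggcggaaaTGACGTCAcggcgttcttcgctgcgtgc

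The Rab5a window held both motifs, the printed Rab11fip3 window the CRE letters, and the Stx4a window neither. Over all genes with a RefSeq promoter entry, the E-box letters stood before 6.86% of 27025 genes and the CRE letters before 1.77%. Of the 83 members with an entry 12 (14.5%) held the E-box letters and 3 (3.61%) the CRE letters. A gene with several entries counted if any of them held the letters. The 27025 genes were neither limited to those in the deposited table nor matched for promoter GC content. The 2 sets are therefore unlike, and an excess in members was not tested. A match describes these letters only.

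Transcript abundance is given in FPKM, a level that is scaled for both transcript length and library size. Differences are log2(FPKM + 1) in SML minus HFD control, a scale that understates the difference of low genes. A gene was called higher or lower when this difference reached 1.5-fold, and genes whose mean over both libraries reached 1 FPKM were kept, which left 9870 genes and 90 of the 98 members. Ratios are of the deposited scaled counts, SML over HFD control, with 95% exact binomial intervals on fragments. The deposited table held 12001476 fragments for HFD control and 8503628 for SML, of which 51688 and 39878 belonged to members. Markers of the labelled tissue included abundant ones, such as Ucp1 with 8702 FPKM (control) and 7955 FPKM (SML), but were not all level. Of 11 brown adipocyte markers 2 were higher in SML and 0 were lower, with a summed FPKM of 67980 in HFD control and 57168.9 in SML. The higher ones were Lpl (335.47 and 950.97 FPKM) and Dio2 (8.34 and 14.98 FPKM). Cox8b had the lowest difference of this list at -0.57 (22044.4 and 14824.1 FPKM), just under the size rule. Marker lists of other cells differed between the libraries: all 15 skeletal muscle markers were lower in SML, with their summed FPKM at 4205 in HFD control and 276.9 in SML. Lower too were 6 of 9 macrophage markers (446 and 276 FPKM summed), 2 of 7 endothelial markers (245 and 159), 4 of 4 erythroid markers (1974 and 1012) and 2 of 4 nerve and Schwann cell markers kept (178 and 174), while 2 of 5 mast cell markers were higher (10.7 and 14.8) and 0 of 3 lymphocyte markers kept were called (11.21 and 12.99). Cd79a, a B cell marker under the filter, had 25 fragments in HFD control and 3 in SML. No marker kept was listed at 0 in either library. The part of these cells in the results on trafficking genes was not tested, and in bulk tissue fewer cells of a type and less RNA per cell cannot be told apart.

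The trafficking genes stood close to each other in the 2 libraries. Of the 90 members kept 2 were higher in SML (2.22%), beside 5.45% of all genes kept, and 1 was lower (1.11%), beside 5.74%. The 2 higher members were Stx4a and the antisense transcript Rab26os, and the lower one was Rab11fip3. The median difference of the members was 0.06, with quartiles of -0.11 and 0.21, beside a median of 0 and quartiles of -0.21 and 0.22 over all genes kept. Differences of at most 1.25-fold in either direction were seen in 68 of the 90 members (75.6%) and in 66.8% of all genes kept. On scaled counts, where low genes are not damped, 6 members were higher (6.67%, beside 8.95% of all genes) and 2 were lower (2.22%, beside 8.29%). The added ones were Stx16, Tbc1d10a, Tbc1d12 and Vamp4 above and Rab31 below. The counting interval of the ratio lay above 1 for 24 members (26.7%, beside 25.1% of all genes) and below 1 for 16 (17.8%, beside 23.5%).

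**Figure D1:**
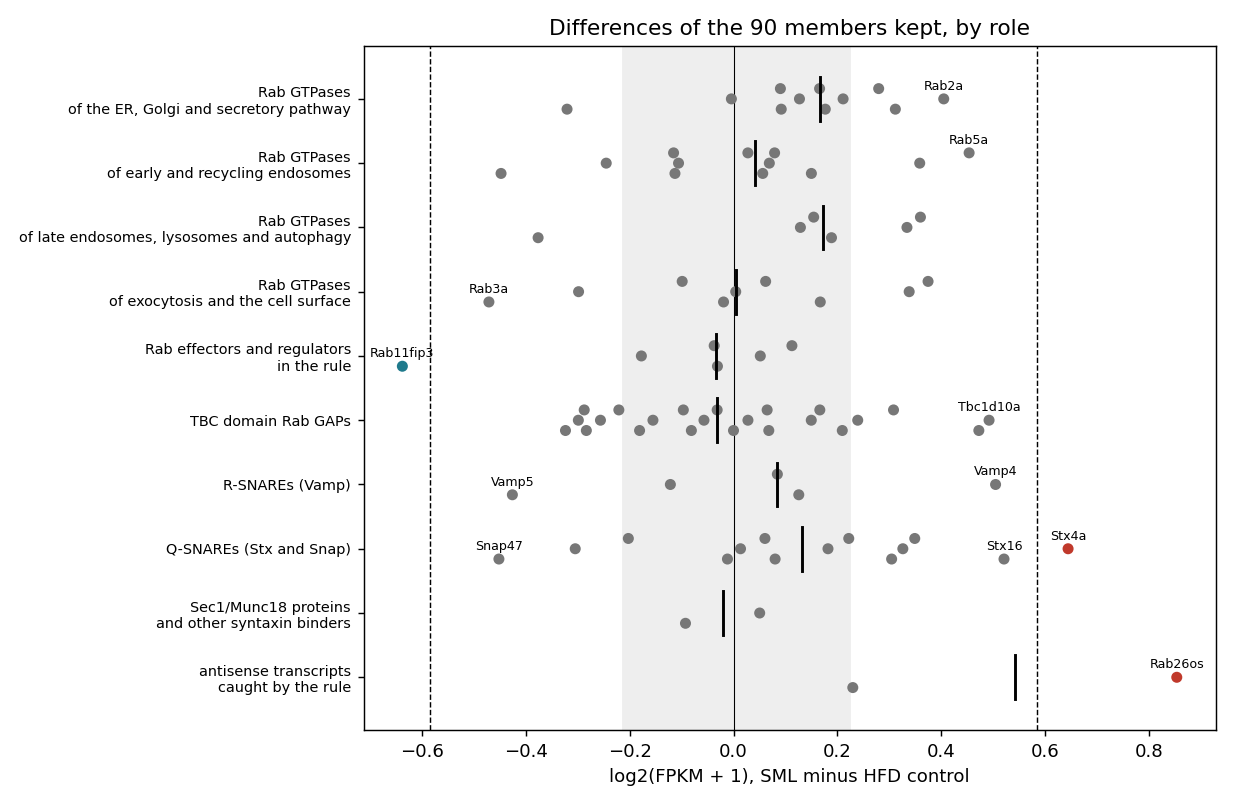
Difference in log2(FPKM + 1), SML minus HFD control, of each of the 90 members kept (points), by role. Bars mark the role medians, the grey band the quartiles of all genes kept (-0.21 to 0.22) and the dashed lines the 1.5-fold rule. Stx4a and Rab26os lie beyond the upper line and Rab11fip3 beyond the lower one.

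Stx4a encodes syntaxin 4, the Q-SNARE of the fat cell surface at which GLUT4 vesicles dock. Its level was 30.4 FPKM in the control library and 48.1 in the SML library, with 475 and 551 fragments. The ratio was 1.58 (1.39 to 1.79), so the whole interval lay above 1 and part of it below the 1.5-fold line. The difference of 0.64 became 0.79 when the trend on GC content and transcript length was taken out. The labels' protocol names no step that marks strand, so here and below reads from exons that overlap a gene on the opposite strand cannot be assigned to one gene.

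Rab11fip3, an effector of Rab11 on recycling endosomes, was the one lower member. It had 2.64 FPKM in the control and 1.34 FPKM in the SML library, from 108 and 40 fragments, and was 1.97-fold lower (1.37 to 2.93). Its difference was -0.64, and -0.60 after removal of that trend. The gene is scarce and would drop out under a filter at 5 FPKM. Rab26os, a noncoding transcript named for its place antisense to Rab26, had the highest difference of the members kept at 0.85 (8.98 and 17.0 FPKM). It rested on 14 and 19 fragments, and its ratio of 1.84 had an interval from 0.877 to 3.97 that holds 1. A difference in Rab26os was thus not detectable at this depth.

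The 24 most abundant members give the scale of this machinery in brown fat. Rab1b, which serves transport from the endoplasmic reticulum to the Golgi, was the most abundant with 211.9 FPKM in the control and 211.3 FPKM in the SML library and a ratio of 0.995 (0.951 to 1.04). Vamp8, an R-SNARE of late endosomes, lysosomes and secretory granules, followed at 173 and 159 FPKM, and Rab5c of early endosomes at 140.2 and 129.6 FPKM. Only 5 members had a mean above 100 FPKM, the other 2 being Rab34 and Rab7. Below them 49 members had a mean of 10 FPKM or more, those 5 included, and 8 members lay under the filter.

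**Figure D2:**
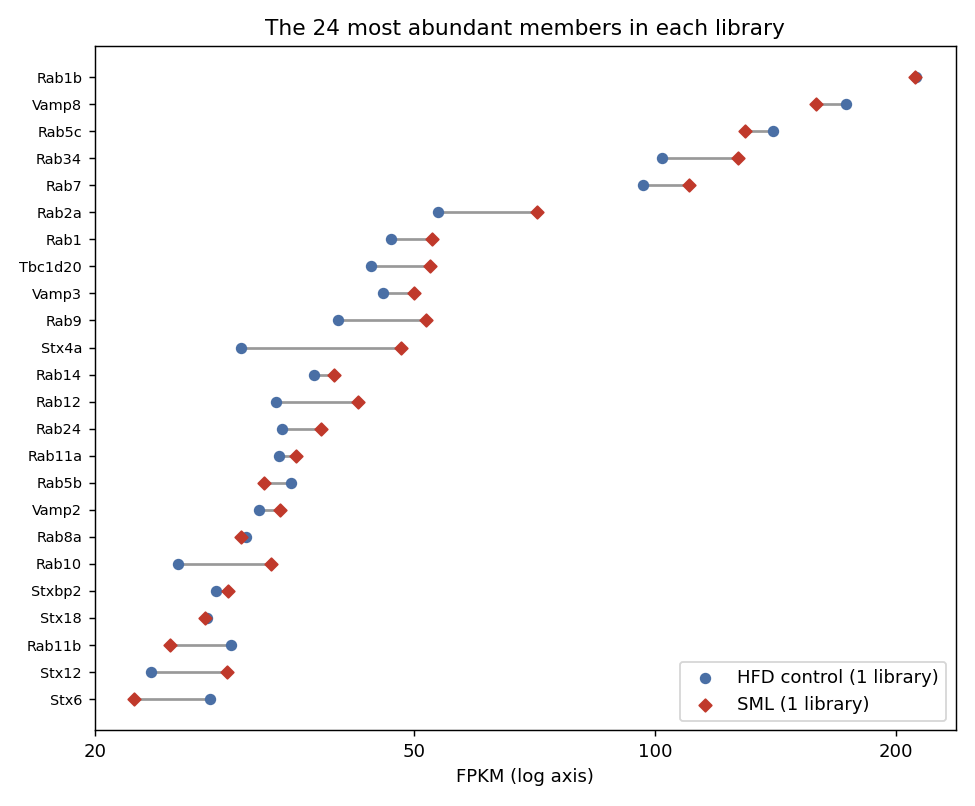
FPKM (log axis) of the 24 members with the highest mean, in HFD control (circles) and SML (diamonds), joined by lines. Stx4a has the widest gap (30.4 and 48.1 FPKM), while the 2 points of Rab1b nearly coincide (211.9 and 211.3).

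Among Rab GTPases of the endoplasmic reticulum, Golgi and secretory pathway 0 of 11 members were called, with a median difference of 0.17 and 9 of 11 above 0. The background for this and the other small role groups is 5.45% of all genes kept called higher and 5.74% lower. Of those 9870 genes 4930 had a difference above 0. Rab2a, which acts between the endoplasmic reticulum and the Golgi, had 53.5 FPKM (control) and 71.2 FPKM (SML), a ratio of 1.33 (1.23 to 1.43). Rab1, the close relative of Rab1b, had 46.8 and 52.6 FPKM and a ratio of 1.12 (1.04 to 1.21). These 2 ratios were above 1 by more than counting error, yet under the 1.5-fold rule. Rab34, linked to the Golgi and to the building of primary cilia, had 102 and 126.8 FPKM and a ratio of 1.27 (1.19 to 1.36). With the more abundant of its 2 transcripts alone the Rab34 difference was 0.13 in place of 0.31. Rab18, found on the endoplasmic reticulum and on lipid droplets, had 16.0 and 18.3 FPKM and a ratio of 1.14 (1.02 to 1.27), though its difference went from 0.18 to -0.17 on removal of the GC and length trend. The lowest member of this group was Rab6b at 6.18 and 4.75 FPKM (ratio 0.769, 0.646 to 0.912). With that trend removed the group median was 0.06.

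Of 12 Rab GTPases of early and recycling endosomes that were kept 0 were called, and their median difference was 0.04. Rab5a, a master switch of early endosome fusion, had the highest difference of any Rab GTPase at 0.45. Its level was 11.8 FPKM (control) and 16.5 FPKM (SML), with a ratio of 1.399 (1.201 to 1.63). Its relatives went the other way by value: Rab5b had a ratio of 0.926 (0.852 to 1.01) and Rab5c of 0.922 (0.873 to 0.974), although without the GC and length trend the Rab5c difference went from -0.11 to 0.01. Rab5a made up 6.28% of the summed FPKM of these 3 genes in HFD control and 9.22% in SML, so Rab5c remained the main form in both libraries. Rab21, another early endosome Rab, had 19.3 FPKM in the control library and a ratio of 1.29 (1.13 to 1.49). Rab14, of endosomes and GLUT4 traffic, was nearly level at 37.5 and 39.7 FPKM (ratio 1.06, 0.976 to 1.14). Of the recycling pair, Rab11a had 33.9 and 35.6 FPKM and Rab11b 29.5 and 24.8 FPKM, with ratios of 1.05 (0.952 to 1.15) and 0.838 (0.784 to 0.896). The lowest member kept was Rab31 at 2.45 and 1.53 FPKM, whose ratio of 0.622 (0.434 to 0.880) passed the 1.5-fold line on counts and not on log2(FPKM + 1).

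The late endosome, lysosome and autophagy group had 0 of 6 kept members called and a median difference of 0.17, or 0.25 with the GC and length trend removed, with 5 of 6 above 0. Rab7, which controls the fusion of late endosomes with lysosomes, had 96.6 FPKM (control) and 110.2 FPKM (SML, ratio 1.13, 1.07 to 1.20). The more abundant of its 2 transcripts was near level at 73.4 and 74.6 FPKM, and the other had 23.2 and 35.6 FPKM. With the more abundant transcript alone the Rab7 difference was 0.02 in place of 0.19. Rab9, which serves return traffic from late endosomes to the Golgi, had 40.2 and 51.8 FPKM (ratio 1.29, 1.15 to 1.44). Rab12, a Rab that steers receptors toward lysosomes, had 33.6 and 42.6 FPKM (ratio 1.27, 1.14 to 1.40). These 3 intervals lay above 1. Rab24, tied to autophagy, stood at 34.2 and 38.2 FPKM, but 62.4% of its annotated exon bases overlap Prelid1 on the opposite strand. The exception by value was Rab29, with 13.5 and 10.2 FPKM and a ratio of 0.751 (0.582 to 0.964). Rab7b, a distinct late endosome Rab under the filter at 1.22 and 0.57 FPKM, had 38 and 13 fragments and a ratio of 0.465 (0.227 to 0.892).

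Rab GTPases of exocytosis and the cell surface also had 0 of 9 kept members called, with a median of 0. Rab10, the Rab that brings GLUT4 vesicles to the fat cell surface, had the highest difference of this group: 25.4 FPKM (control) and 33.2 FPKM (SML), with a ratio of 1.31 (1.201 to 1.42). Rab8a, its relative, was level at 30.8 and 30.4 FPKM (ratio 0.985, 0.880 to 1.10). Rab28, known from cilia, stood at 20.7 and 26.5 FPKM (ratio 1.27, 1.10 to 1.47), with a difference of 0.34 that was -0.08 once the GC and length trend was removed. At the other end stood Rab3a, the Rab of regulated secretion that is abundant in neurons, with 22.2 and 15.7 FPKM and a ratio of 0.707 (0.591 to 0.843). Rab3d, its form in secretory cells, had 17.9 and 16.6 FPKM (ratio 0.930, 0.836 to 1.03). Beside Rab3a, the Schwann cell marker Mbp was lower in SML (21.8 and 13.6 FPKM) and S100b stood at 134 and 153 FPKM.

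Over all Rab GTPases, 26 of 38 kept members had a difference above 0 and 12 below, with a median of 0.09 and a span from -0.47 to 0.45. Of the 37 with a GC value 25 were above 0 as measured and 21 without the GC and length trend, where 7 turned to below 0 and 3 to above 0. Over all genes kept 4930 of 9870 differences were above 0. Within pairs of close relatives, the form with the lower GC content had the higher difference in several cases. Rab11a (39.5% GC) stood at 0.07 and Rab11b (48.1% GC) at -0.25. Rab6a (44.6%) stood at 0.09 and Rab6b (51.4%) at -0.32, but 19.0% of the Rab6a exon bases overlap Mrpl48 on the opposite strand. Rab8b (40.6%) stood at 0.17 and Rab8a (49.4%) at -0.02, but both ratio intervals hold 1 (0.895 to 1.59 and 0.880 to 1.10). Removing the GC and length trend brought the first pair to -0.20 and -0.31, closer together than before. It brought Rab6a and Rab6b to -0.02 and -0.31, and Rab8b and Rab8a to -0.12 and -0.04, where the Rab8 order was reversed. The Rab4 pair went against the order of GC content, with Rab4a (53.7%) at -0.12 and Rab4b (57.9%) at 0.06. Both Rab4 ratio intervals hold 1 (0.697 to 1.19 and 0.856 to 1.26), and 65.0% of the Rab4b exon bases are shared with the same-strand gene model Gm21983. Across the 89 kept members with a GC value the difference and GC content had a Spearman rho of -0.33, and across all 9818 such genes it was -0.32. These are descriptions across genes of the same 2 libraries, and genes are not independent replicates.

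**Figure D3:**
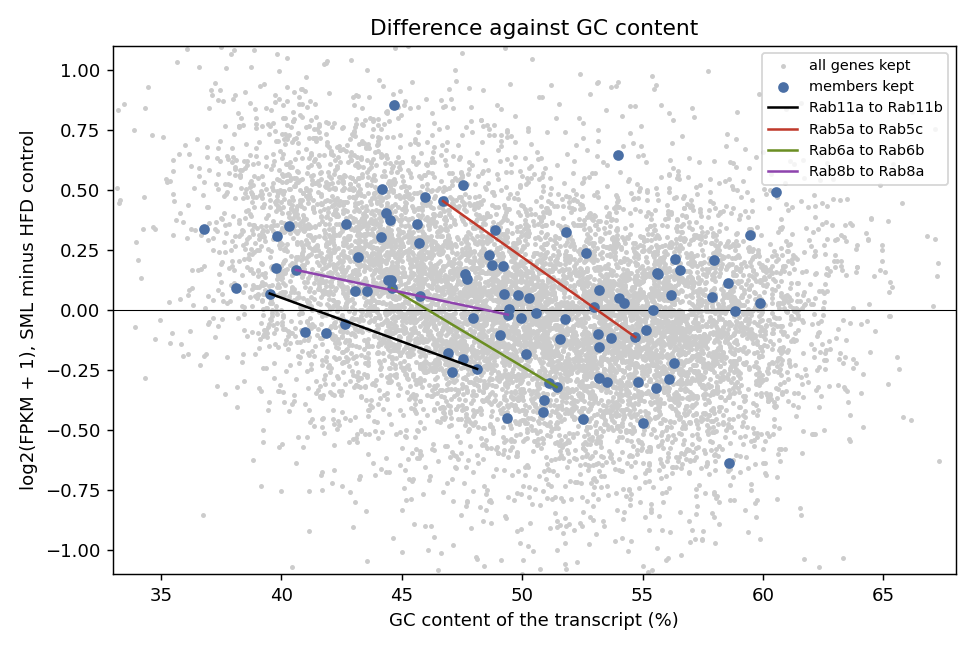
Difference in log2(FPKM + 1), SML minus HFD control, against the GC content of the transcript for 89 members (blue) and all genes kept (grey; 216 genes outside the axes are not drawn). Lines join 4 pairs of relatives, each running down from the form with less GC, such as Rab11a (0.07) to Rab11b (-0.25).

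Among the proteins that act on Rabs, Rab11fip3 alone passed the size rule on log2(FPKM + 1), and Tbc1d10a and Tbc1d12 passed it on scaled counts. Of 6 Rab effectors and regulators kept 1 was called lower, beside 5.74% of all genes kept. Rab3ip, which loads Rab8 with GTP, had 15.5 and 16.1 FPKM. Rab3gap1 and Rab3gap2, the 2 subunits of a Rab regulatory complex, had ratios of 0.975 (0.846 to 1.12) and 0.847 (0.698 to 1.03). Of the Rab3gap2 exon bases 18.8% overlap Iars2 on the opposite strand. Rab11fip5, a relative of Rab11fip3, had a ratio of 1.14 (0.997 to 1.29) at 9.61 and 10.47 FPKM. Among 23 TBC domain genes 0 were called, with a median of -0.03, 10 above 0 and 12 below. Tbc1d20, which acts on Rab1 and Rab18, was the most abundant at 44.2 and 52.4 FPKM (ratio 1.18, 1.08 to 1.29). Tbc1d7, better known as a subunit of the TSC complex that restrains mTORC1, had 25.2 and 20.9 FPKM (ratio 0.830, 0.700 to 0.988). Tbc1d17 had 20.04 and 16.2 FPKM (ratio 0.809, 0.711 to 0.920), with 35.2% of its exon bases overlapping Il4i1 on the opposite strand. The 2 highest were scarce genes: Tbc1d10a at 2.79 and 4.33 FPKM (ratio 1.55, 1.09 to 2.20) and Tbc1d12 at 0.73 and 1.40 FPKM (ratio 1.92, 1.25 to 2.97, from 39 and 55 fragments). With the GC and length trend removed Tbc1d10a reached 0.60 and joined the higher members, so that 3 members were higher, beside 3.61% of all genes, and 1 was lower, beside 5.29%.

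Of the 5 R-SNAREs 0 were called. Vamp2 and Vamp3, the vesicle SNAREs of GLUT4 storage and of recycling endosomes, were near level at 32.0 and 34.01 FPKM and at 45.7 and 49.95 FPKM. Their ratios were 1.06 (0.956 to 1.18) and 1.09 (1.0003 to 1.19), the second interval lying just above 1. Vamp8 had a ratio of 0.913 (0.840 to 0.993). Vamp5, which is best known from muscle cells, had 13.6 FPKM (control) and 9.84 FPKM (SML, ratio 0.718, 0.580 to 0.886), beside the skeletal muscle markers that were lower in the same library, such as Acta1 at 881 and 52.5 FPKM. Vamp4, of the trans-Golgi network, was scarce at 1.15 and 2.05 FPKM, with 36 and 47 fragments and a ratio of 1.77 (1.12 to 2.82).

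Of the 14 Q-SNAREs kept 1 was called, Stx4a, beside 5.45% of all genes kept called higher. Their median was 0.13, with 10 of 14 above 0. Snap23, the partner of syntaxin 4 at the fat cell surface, had 5.36 FPKM (control) and 7.10 FPKM (SML, ratio 1.32, 1.04 to 1.68). Snap47 was the lowest at 21.4 and 15.4 FPKM (ratio 0.717, 0.612 to 0.838), and 11.6% of its exon bases overlap Jmjd4 on the opposite strand. Among syntaxins of endosomes, Stx12 had a ratio of 1.24 (1.11 to 1.39) and Stx8 of 1.28 (1.12 to 1.46), and Stx7 stood at 10.7 and 12.6 FPKM. Among those of the Golgi, Stx6 had 27.8 and 22.4 FPKM (ratio 0.801, 0.716 to 0.897) and Stx5a had 22.7 and 19.6 FPKM (ratio 0.852, 0.737 to 0.983), while the trans-Golgi Stx16 had 2.52 and 4.05 FPKM and a ratio above 1. Stx18, of the endoplasmic reticulum, was level at 27.6 and 27.4 FPKM, with 12.5% of its exon bases overlapping Nsg1 on the opposite strand. Of the syntaxin binders, Stxbp2 had 28.3 and 29.3 FPKM, and Stxbp3, the Munc18 protein that pairs with syntaxin 4, had 4.64 and 4.29 FPKM (ratio 0.922, 0.701 to 1.21).

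Seen as the GLUT4 route, 15 of 17 listed symbols were in the table, the remainder being spelling variants of genes that were. Of these 15 members 1 was higher (Stx4a; 6.67%, beside 5.45% of all genes kept) and 0 were lower (beside 5.74%), so the calls were near that background. The counting interval lay above 1 for 5 of the 15 and below 1 for 1, beside 25.1% and 23.5% of all genes kept. The median difference was 0.06. Of the GTPase-activating proteins at its insulin-regulated step, Tbc1d4 (AS160), which holds Rab10 inactive until insulin signals, had 4.10 FPKM (control) and 3.99 FPKM (SML, ratio 0.972, 0.823 to 1.15), and its relative Tbc1d1 had 2.14 and 1.82 FPKM (ratio 0.850, 0.637 to 1.13). Stx16, of the trans-Golgi route that forms GLUT4 storage vesicles, had a ratio of 1.61 (1.25 to 2.08) with a difference of 0.52, just under the size rule, and its partner Stx6 had a ratio below 1. Rab13, at 10.4 and 10.9 FPKM, Tbc1d13, at 17.5 and 18.4 FPKM, and Rab4a, at 8.76 and 8.01 FPKM, had intervals that hold 1. Of 16 kept genes of a list of other GLUT4 vesicle genes 1 was higher (6.25%) and 0 were lower. That was Rala, a small GTPase that links GLUT4 vesicles to the exocyst, with 19.4 and 34.2 FPKM (ratio 1.76, 1.58 to 1.95). Slc2a4, which encodes GLUT4 itself, had 185.7 and 162.7 FPKM, and Akt2, the kinase that acts on Tbc1d4, had 270.8 and 214 FPKM (ratio 0.791, 0.766 to 0.818).

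**Figure D4:**
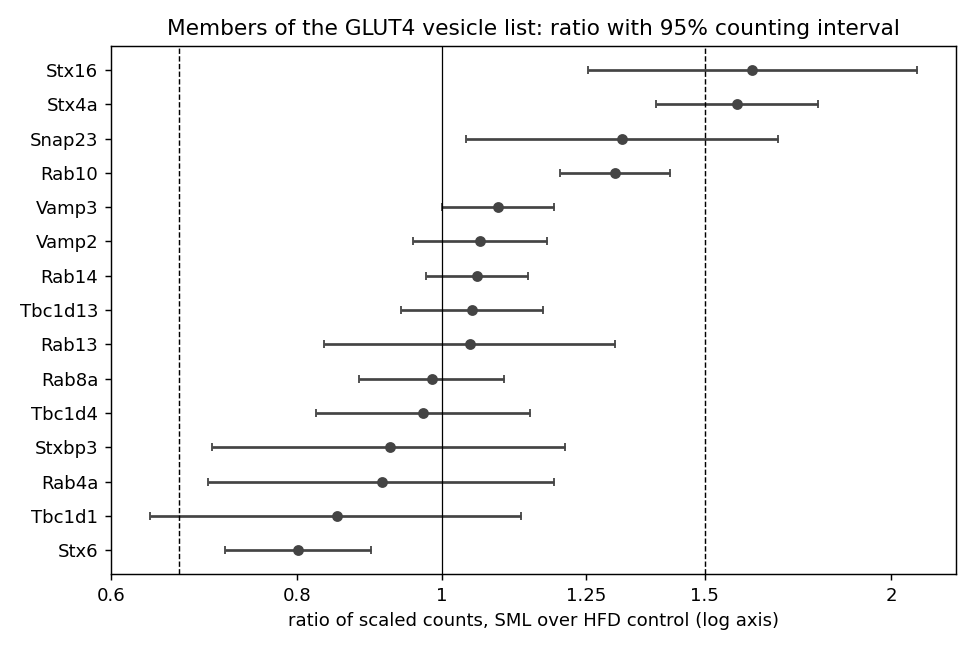
Ratio of scaled counts, SML over HFD control (log axis), of the 15 members on the GLUT4 vesicle list, with 95% intervals that cover counting error only. The solid line marks 1 and the dashed lines 1.5-fold; Stx16 (1.61) and Stx4a (1.58) lie to the right of the upper line and Stx6 (0.801) has the lowest ratio.

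On lipid droplets 0 of 9 listed members were called (median 0.18), among them Rab18, Rab7, Rab5a and Rab32, the last at 1.57 and 1.81 FPKM. Of the neuronal exocytosis list Rab3a and Vamp2 were kept and 0 were called, and genes such as Snap25 were not analysed here.

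Other genes of the pathway came from lists outside the naming rule, and their shares called higher stand beside the 5.45% of all genes. Among 19 further SNAREs and disassembly factors 2 were higher (10.5%) and 0 lower (median 0.04): Vps33b, a Sec1/Munc18 protein of endosomes and lysosomes (1.11 and 2.67 FPKM, ratio 2.41, 1.57 to 3.75), and Bet1, an endoplasmic reticulum to Golgi SNARE (16.7 and 25.7 FPKM, ratio 1.54, 1.30 to 1.81). On removal of the GC and length trend the Bet1 difference went from 0.59 to 0.18. The lowest were Vps45 and Bnip1, with ratios of 0.755 (0.620 to 0.917) and 0.812 (0.667 to 0.987). Among 34 further Rab regulators 1 was higher (2.94%), Sytl1, a Rab27 effector (2.42 and 5.06 FPKM, ratio 2.09, 1.47 to 2.98), and 0 were lower. Micall1, next in order, had a difference of 0.56, while Rabac1, an acceptor of prenylated Rabs, had 420.6 and 294.1 FPKM (ratio 0.695, 0.658 to 0.734) and Dennd2d a difference of -0.43. Among 43 subunits of tethering complexes 1 was higher (2.33%), Vps54 of the GARP complex (3.12 and 6.53 FPKM, ratio 2.09, 1.72 to 2.53), and 0 were lower, with a median of -0.07. Without the GC and length trend Vps54 stood at 0.58, just under the rule. Exoc5 of the exocyst stood at 0.56, or 0.09 without that trend, and Trappc12 and Vps39 at -0.55 and -0.54.

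Several members had more than 1 assembled transcript, and for some the estimated split between transcripts differed between the libraries. Of 16 members with at least 2 transcripts above 0 counts, 6 had a transcript whose share of the scaled counts moved by over 15 percentage points: Stx3, Stx16, Stx2, Tbc1d9b, Rab43 and Rab6a. This was 37.5% of them, beside 39.9% of all 2170 genes with several such transcripts, so shifts of this size were common across the table and the members' share was near that background. Stx3 encodes a syntaxin of polarised secretion. Its first transcript had 127 fragments in HFD control and 0 in SML, and its second had 7 and 113, while the gene as a whole had 133 and 113 and a ratio of 1.15 (0.890 to 1.49). In Stx16 the first transcript held 98.8% of the scaled counts in HFD control and 0.0249% in SML, where transcripts 2 and 3 held 46.5% and 53.4%. The most abundant transcript differed between the libraries in 5 of the 16 members (31.2%), namely in these 6 apart from Rab43, beside 22% of all such genes.

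In the other 4 both main transcripts kept a sizeable share in each library. The first Stx2 transcript went from 68.7% in HFD control to 35.6% in SML, with gene totals of 3.25 and 3.29 FPKM. For Tbc1d9b the first transcript held 54.1% and 34.2%, for Rab6a 62.4% and 46.3%, and for Rab43 89.3% and 70.2%. In Rab43 the second transcript, at 0.38 and 1.30 FPKM, had 22 and 56 fragments, and 75.4% of the Rab43 exon bases also belong to a same-strand gene model, Gm45140, so its counts are uncertain. Scaled counts per FPKM, which grow with transcript length, were 23.99 and 23.54 for the 2 transcripts of Stx3 and 25.64 and 25.65 for those of Rab6a, so these transcripts were of nearly equal length. How such fragments were divided between like transcripts is an estimate of the authors' pipeline, no error for it was used here, and the part of that step in the shifts was not tested. The deposited coordinates are of whole genes, so the exons that set the transcripts apart are not given.

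**Figure D5:**
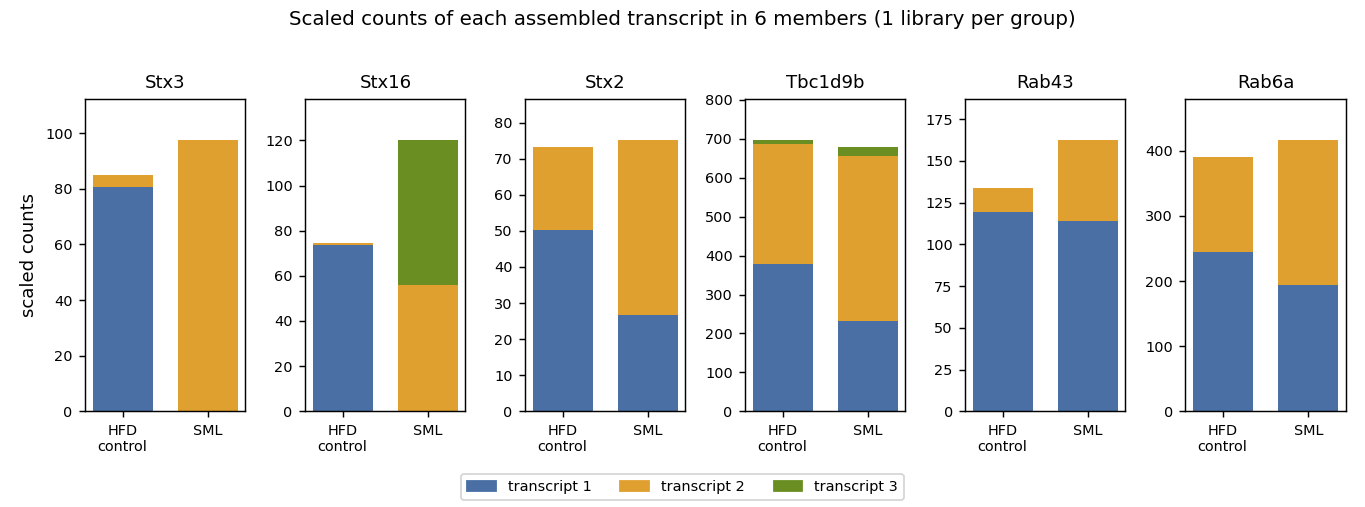
Scaled counts (vertical axes, each panel on its own scale) of each assembled transcript of 6 members in the HFD control and SML libraries, stacked to the gene total and numbered by their level in HFD control. The Stx3 totals are close, but transcript 1 makes up nearly all of the HFD control bar and transcript 2 nearly all of the SML bar.

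The 8 members under the filter included Rab7b, Rab17, Rab20, Rab42, Stxbp5, Tbc1d31 and Tbc1d32. In 6 of the 8 the SML FPKM was listed at 0 although fragments were counted: Stxbp5, which binds syntaxins, had 106 fragments in HFD control and 93 in SML and a count ratio of 1.19 (0.893 to 1.59), beside FPKM values of 0.90 and 0. Tbc1d32 had 69 and 59 fragments in the same way. A deposited 0 of these genes is therefore not a loss of the transcript, and no fold is given for it. Rab17, Rab20 and Rab42 had at most 18 fragments in either library.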

How the data were processed

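Poly(A) RNA of brown fat was sequenced in 2 libraries, 1 per group. The authors deposited FPKM per assembled transcript (14189 transcripts) made with tools that included CASAVA 1.8 and Cufflinks on build mm10, per the submitters' processing notes; no source used here names the aligner or the filters. Counts were deposited as a scaled signal: low values moved in steps of 0.637 (HFD control) and 0.866 (SML), and 91.3% of 527 and 91.2% of 763 low values were whole steps within 0.1. Dividing by the step gave fragments.

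Transcripts were summed per symbol, 30 transcripts with symbols turned into dates were left out, and 12 member transcripts had an SML FPKM of 0 with a count above 0. The members and lists were chosen with earlier results of these data known. GC content and length came from GENCODE M21 (longest coding transcript, or the longest where none is coding; 97 of 98 members matched, and Rab1 was not), and a quadratic trend on both was removed as an alternative. Deposited starts were counted from 0, judged by RefSeq starts, and are given from 1. Named members were those past the size rule, the 5 most abundant per role, 3 member lists and the ends of 4 pathway lists; Rab21, Rab31, Rab6a, Rab6b, Rab8b, Rab4b, Snap47, Stx7, Stx8, Stx3, Stx2, Rab43, Tbc1d10a, Tbc1d12, Cd79a, Mbp and S100b or the values given for them were chosen after they were seen. Some listed genes are not reported here. Alternatives changed the pseudocount, filter, scaling, unit, transcript choice and fold. TMM factors were computed on the fragments by a direct implementation, and no count model was fitted because each group has 1 library. Intervals cover counting error only, since 1 library per group gives no spread between animals. They may be too narrow even for that where PCR duplicates, which are not independent molecules, were counted. The scripts were tested on simulated data. Analyses used Python 3.11.15, pandas 2.3.3 and scipy 1.17.1.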

Additional observations from a re-analysis of the deposited data

How the results depend on the processing

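The 2 higher members numbered 6 with a pseudocount of 0.1 FPKM and 6 on scaled counts, 0 by a 2-fold rule and, in an alternative chosen after seeing the data, 1 without the antisense transcripts. The 1 lower member became 2 with that pseudocount, 2 on scaled counts, 2 with the highest transcript per symbol, 7 without a filter (6 of them listed at 0 in SML), 0 under a filter at 5 FPKM and 0 by a 2-fold rule. The other settings gave 2 or 3 higher and 1 lower. The median difference stayed between 0.03 (GC and length trend removed) and 0.11 (totals equal outside the 50 highest genes, a shift of 0.05). Removing that trend turned the sign of 13 of 89 member differences, and the highest transcript per symbol turned 5 of 90, among them Stx16 at -1.80. Stx4a and Rab26os were higher in every alternative but the 2-fold rule, save that Rab26os was not among the genes once the antisense transcripts were taken out. No paired analysis was possible because each group has 1 library. Depth limits members under about 50 fragments, such as Rab26os.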

Other observations

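On chromosome 6 of mm10 the deposited spans of Vamp5 and Vamp8 lie 4752 bases apart, and both had a ratio below 1, at 0.718 (0.580 to 0.886) and 0.913 (0.840 to 0.993).

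The SNAREs known to join late endosomes, Stx7, Stx8, Vti1b and Vamp8, did not have ratios on one side of 1. Vti1b, chosen after its values were seen, had 46.4 FPKM (control) and 65.8 FPKM (SML), while Vamp8 stood at 173 and 159.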
